A study of Mus musculus with 12 samples.

Results

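The mRNA levels of 10 genes that the transcription factor p53 switches on, Cdkn1a, Mdm2, Ccng1, Bax, Phlda3, Trp53inp1, Sesn1, Eda2r, Zmat3 and Plk2, were examined in livers of alcohol-fed (AF) and pair-fed (PF) mice, gene by gene and liver by liver. They were found by their GENCODE M21 symbols among the 54232 gene IDs of the count table. All 10 were found, and all 10 were among the 14168 genes with enough reads to be tested. The livers came from male C57BL6/J mice of the intragastric model of alcohol-associated steatohepatitis (ASH), whose age the labels give as 8-week. This may be the age at the start or the length of the treatment. The 5 PF mice were given an isocaloric liquid diet high in fat for 8 weeks, and the 7 AF mice a high-fat liquid diet with ethanol, which was raised to 27 g/kg/day, and a binge of 5 g/kg each week from the second week. By the study's methods, the regimen also included a solid diet, high in cholesterol and saturated fat during the intragastric feeding. Before that feeding, it was such a diet or regular chow, and which solid diet the PF mice ate is not spelled out. Both groups were on a high-fat liquid diet, so the PF livers are no livers of untreated mice. Livers were taken 1 day after the last binge. Each mouse gave 1 library of polyadenylated RNA from whole liver. In whole tissue, a change in the share of a cell type and a change in RNA per cell cannot be told apart.

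p53 is kept at low levels by the ubiquitin ligase Mdm2, which marks it for degradation. DNA damage and other stresses release it from Mdm2, mostly through changes to the protein, and p53 then binds paired decamer elements near its target genes. The targets include inhibitors of the cell cycle, activators of apoptosis, antioxidant enzymes and, as a negative feedback, Mdm2 itself. In liver, p53 targets are known to respond to DNA damage, oxidative stress and regeneration.

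Each library held 24129900 to 30578639 reads on genes. Levels are given as counts scaled to library size (CPM) after scaling of the libraries with the TMM factors of edgeR, at 0.832 to 0.901 for PF and 0.880 to 1.36 for AF livers. On a principal component analysis of all genes tested, the AF livers were spread along the first component from -7.73 (AF 6) to 83.9 (AF 1), with all PF livers at or below -52.5. AF 6 and AF 7 stood apart on the second component. The markers of hepatocytes were abundant in every liver, with a summed level of 109348 to 154883 CPM in PF and 55489.9 to 110929 CPM in AF livers, and none of the 10 markers was at 0 (0 rose, 3 fell).

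Compared to PF livers, 8 of the 10 p53 target genes rose in AF livers and none fell at an adjusted p under 0.05 by edgeR's quasi-likelihood test. Phlda3 (11.6-fold), Cdkn1a (8.40-fold) and Eda2r (5.26-fold) rose by the most, followed by Zmat3 (2.52-fold), Bax (2.29-fold), Ccng1 (1.86-fold), Plk2 (1.58-fold) and Mdm2 (1.44-fold). The fold of Phlda3 rests on 61 reads in all PF livers together. Trp53inp1 and Sesn1 did not pass the test. Among all 14168 genes tested, 22% rose (3116 genes) and 17.8% fell (2519 genes), 39.8% in either direction. The median log2 fold change of the 10 genes was 1.05, against 0.04 for all genes tested. Every AF liver was above every PF liver for 2 of the 10 genes, Cdkn1a and Bax, and for 8.2% of all genes tested. DESeq2 also called 8 higher and 0 lower, and limma-voom called 7 higher and 0 lower. At an unadjusted p under 0.05, 8 were higher and 0 lower with each of the 3 tools. With library totals and no scaling factor, the median of all genes tested moved from 0.04 to 0.40, and 6458 genes were then called higher and 938 lower, but the count for the 10 genes stayed at 8.

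**Figure D1:**
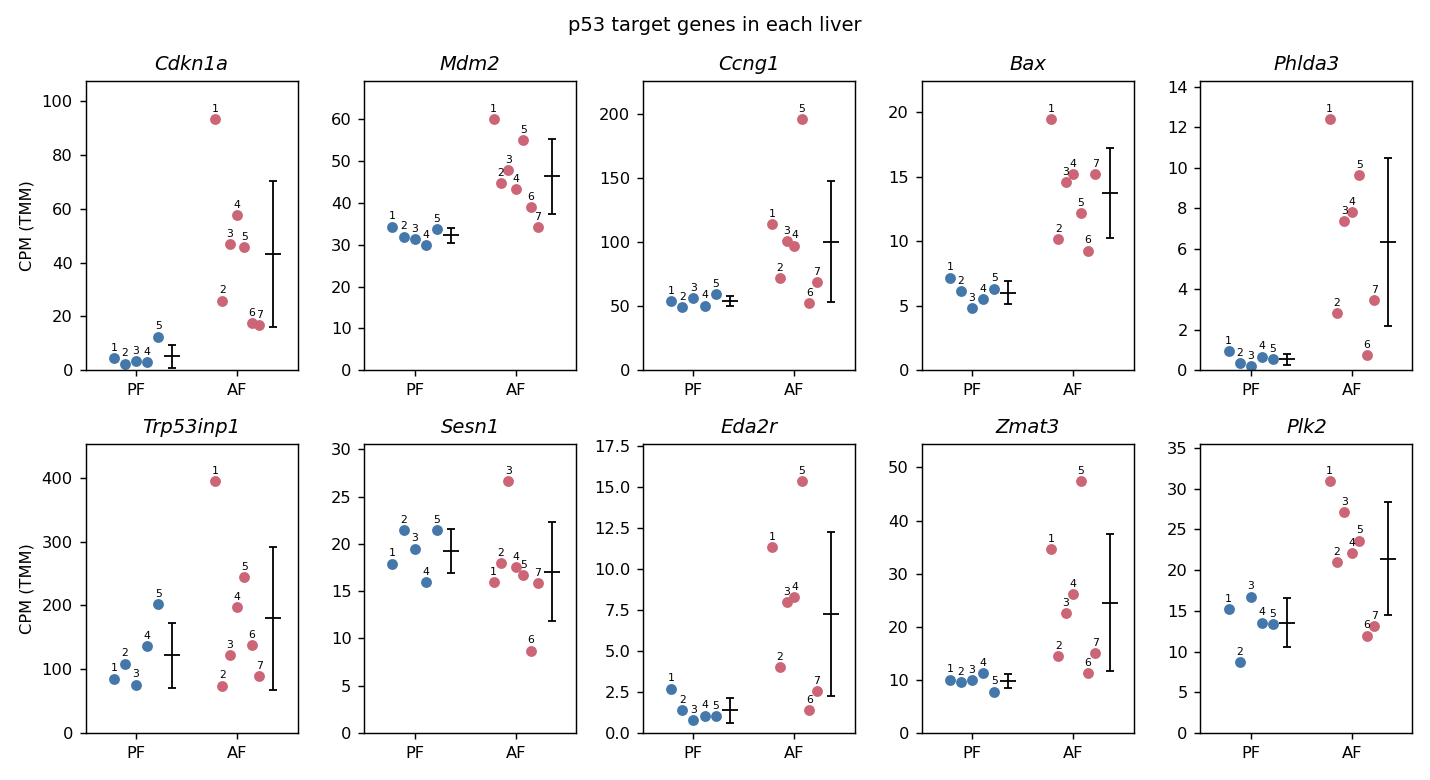
Level of each of the 10 p53 target genes (CPM after TMM scaling, vertical axes starting at 0) in the 5 PF and 7 AF livers, where each point is 1 liver with its replicate number and the bar beside each group is the mean ± SD. The groups do not overlap for Cdkn1a and Bax, and AF livers 6 and 7 are often the AF points nearest to the PF livers.

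Cdkn1a (ENSMUSG00000023067, chr17:29090976-29100727 in GRCm38) encodes p21, the inhibitor of cyclin-dependent kinases through which p53 arrests the cell cycle. PF livers 1 to 5 held 4.48, 2.47, 3.38, 3.03 and 12.5 CPM of Cdkn1a. AF livers 1 to 7 held 93.5, 25.9, 46.8, 57.7, 45.7, 17.4 and 16.7 CPM. The groups did not overlap, although the highest PF liver (PF 5) lay close to the lowest AF livers (AF 6 and AF 7). PF livers averaged 5.18 ± 4.18 CPM (SD, n = 5) and AF livers 43.4 ± 27.2 CPM (SD, n = 7), from 580 and 10210 reads in all. The log2 fold change of Cdkn1a was 3.07 with a standard error of 0.541 (edgeR adjusted p = 0.00102). It was 3.70 without PF 5 and 2.77 without AF 1. The gene AC167363.2 on the opposite strand overlaps Cdkn1a, and the strand setting of the counting is not given in the sources used here.

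The 5′ flank of Cdkn1a is printed because it holds a close match to the element that p53 binds, and the flank of Ccng1 because it was the only other one of those searched (8 of the 10 genes) to hold a match. The sequences are those of RefSeq for GRCm38.p6, read in the direction of the gene, and the capitals mark the match to the p53 consensus element. The stretch shown for Cdkn1a is chr17:29090729-29090948 on the plus strand, and that for Ccng1 is chr11:40755317-40755536 on the minus strand.
Cdkn1a: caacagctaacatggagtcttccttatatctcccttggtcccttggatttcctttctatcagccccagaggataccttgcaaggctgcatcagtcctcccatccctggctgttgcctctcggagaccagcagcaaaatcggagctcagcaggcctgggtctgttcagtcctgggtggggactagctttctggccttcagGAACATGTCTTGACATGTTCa
Ccng1: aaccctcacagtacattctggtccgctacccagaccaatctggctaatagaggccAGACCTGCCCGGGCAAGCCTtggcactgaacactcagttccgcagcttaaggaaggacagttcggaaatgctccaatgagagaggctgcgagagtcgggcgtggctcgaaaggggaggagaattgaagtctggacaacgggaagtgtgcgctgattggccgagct
The Cdkn1a match lay at chr17:29090928-29090947, from 51 to 32 bases before the RefSeq start site, and 2822 bases before a second RefSeq start of the same gene. In Ccng1, the match lay at chr11:40755462-40755481, from 195 to 176 bases before the start. Both had 1 mismatch to the consensus. Windows from 250 bases before to 50 bases after the start were searched on both strands for the 20-base consensus with no gap between its decamers, the invariant C and G of each decamer and at most 2 mismatches. RefSeq windows were matched for 8 of the 10 genes (10 windows), without Trp53inp1 and Zmat3. The match was found in 2 of these 10 windows and in 0.326% of all 32851 windows. At least 1 decamer (10 bases) without mismatch was found in 5 of the 10 windows, in Cdkn1a, Ccng1, Bax, Mdm2 and Sesn1, and in 8.36% of all windows. In Cdkn1a and Ccng1 a decamer of this kind is a part of the 20-base match. These are matches of letters in short windows, and binding of p53 was not measured.

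Ccng1 (ENSMUSG00000020326, chr11:40748552-40755311) encodes cyclin G1, which acts with a phosphatase on Mdm2 and takes part in the control of p53. Its PF levels were 54.3, 49.5, 56.5, 50.5 and 59.5 CPM, a narrow range. In AF livers, Ccng1 ranged from 52.7 CPM in AF 6 over a median of 97.4 CPM to 197 CPM in AF 5. The other 6 AF livers were above every PF liver, and AF 6 lay within the PF range. The PF mean of 54.1 ± 4.15 CPM (SD, n = 5) rose to an AF mean of 100.4 ± 47.5 CPM (SD, n = 7) (log2 fold change 0.89, SE 0.264, edgeR adjusted p = 0.0169). Without AF 5, it was 0.65.

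Plk2 (ENSMUSG00000021701, chr13:110395046-110400844) encodes a polo-like kinase with a role in centriole duplication and in cell cycle checkpoints. PF livers held 15.2, 8.69, 16.8, 13.6 and 13.4 CPM of Plk2. The AF livers held 11.95 CPM (AF 6), 13.1 CPM (AF 7) and 20.97 to 30.9 CPM (the other 5). AF 6 and AF 7 were thus within the PF range, and the remaining AF livers were above it. PF livers averaged 13.5 ± 3.03 CPM (SD, n = 5) and AF livers 21.4 ± 6.92 CPM (SD, n = 7). The log2 fold change was 0.66 ± 0.236 (SE), and the adjusted p by edgeR was 0.0390. Among the 8 genes that rose, Plk2 was the least firm call. Its adjusted p was 0.0682 with limma-voom, and it was above 0.05, up to 0.0976, when any single library other than PF 3, AF 6 or AF 7 was left out (edgeR, log2 fold change 0.54 to 0.77 over all 12 libraries left out in turn).

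Mdm2 (ENSMUSG00000020184, chr10:117688875-117710758), the ubiquitin ligase that p53 induces and that degrades p53, rose by the least of the 8 genes but with little scatter among PF livers. Its PF levels were 34.4, 31.9, 31.3, 29.8 and 33.8 CPM. Among AF livers the lowest was 34.3 CPM (AF 7), the median 44.6 CPM and the highest 60.1 CPM (AF 1). AF 7 lay just under the highest PF liver, and the other 6 AF livers lay above all PF livers. PF livers averaged 32.2 ± 1.83 CPM (SD, n = 5) and AF livers 46.3 ± 8.94 CPM (SD, n = 7). The log2 fold change of Mdm2 was 0.52 ± 0.126 (SE), and the adjusted p by edgeR was 0.00604.

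Of the genes that act in apoptosis, Bax (ENSMUSG00000003873, chr7:45461697-45466898) encodes the BCL2 family protein that permeabilizes the outer mitochondrial membrane. PF livers held 7.19, 6.13, 4.83, 5.51 and 6.33 CPM of Bax. AF livers 1 to 7 held 19.5, 10.2, 14.6, 15.2, 12.2, 9.27 and 15.2 CPM. Every AF liver was above every PF liver, AF 6 and AF 7 included. With means of 6.00 ± 0.886 CPM (SD, n = 5) and 13.7 ± 3.50 CPM (SD, n = 7), Bax had the lowest adjusted p of the 10 genes (log2 fold change 1.20, SE 0.182, edgeR adjusted p = 4.00e-04). The annotation places Gm45808 on the same strand over Bax, so that reads shared by both could be missing from the count of Bax. How such reads were handled is not given.

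Phlda3 (ENSMUSG00000041801, chr1:135766119-135769136) encodes a small pleckstrin homology protein that keeps the survival kinase Akt from the membrane. Its level was near 1 CPM or below in PF livers, with 0.935, 0.366, 0.208, 0.668 and 0.543 CPM. AF livers 1 to 7 held 12.4, 2.81, 7.35, 7.79, 9.64, 0.745 and 3.45 CPM of Phlda3. AF 6 was again within the PF range, and the other AF livers were above it. The PF mean of 0.544 ± 0.280 CPM (SD, n = 5) rose to an AF mean of 6.31 ± 4.14 CPM (SD, n = 7) (log2 fold change 3.54, SE 0.632, edgeR adjusted p = 0.00111). The PF mean rests on 61 reads over the 5 livers, with 5 reads in the lowest, against 1499 reads in AF livers. With so few PF reads, Phlda3 passed the filter on low counts only with the help of its AF livers.

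Eda2r (ENSMUSG00000034457, chrX:97333840-97377216) encodes the ectodysplasin A2 receptor, a member of the tumor necrosis factor receptor family. PF livers held 2.71, 1.37, 0.792, 1.06 and 1.04 CPM of Eda2r. AF livers 1 to 7 held 11.3, 4.00, 7.99, 8.29, 15.3, 1.38 and 2.57 CPM. AF 1 to 5 were above all PF livers, while AF 6 and AF 7 were within their range. PF livers averaged 1.39 ± 0.762 CPM (SD, n = 5) and AF livers 7.27 ± 5.01 CPM (SD, n = 7), with 154 and 1717 reads. The log2 fold change of Eda2r was 2.39 ± 0.562 (SE), and the adjusted p by edgeR was 0.00525.

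Trp53inp1 (ENSMUSG00000028211, chr4:11156431-11174379), whose product acts with p53 in stress responses and in autophagy, varied widely within both groups. PF livers held 85.1, 109, 75.7, 136 and 202 CPM of Trp53inp1. AF livers ranged from 74.0 CPM (AF 2) over a median of 137 CPM to 394 CPM (AF 1). Only AF 1 and AF 5 (244 CPM) were above all PF livers, and AF 2 was below them. The log2 fold change of Trp53inp1 was 0.56 with a standard error of 0.394 and did not pass the test (edgeR adjusted p = 0.268).

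Zmat3 (ENSMUSG00000027663, chr3:32334792-32366014) encodes an RNA-binding zinc finger protein. Its PF levels were 10.04, 9.52, 9.96, 11.3 and 7.78 CPM. AF levels of Zmat3 ranged from 11.2 CPM (AF 6) over a median of 22.6 CPM to 47.4 CPM (AF 5), and 6 of the 7 AF livers were above every PF liver. The PF mean of 9.72 ± 1.28 CPM (SD, n = 5) rose to an AF mean of 24.5 ± 12.9 CPM (SD, n = 7) (log2 fold change 1.34, SE 0.320, edgeR adjusted p = 0.00588).

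Sesn1 (ENSMUSG00000038332, chr10:41809935-41908424) encodes sestrin 1, which dampens mTORC1 signaling and takes part in antioxidant defense. PF livers held 17.9, 21.5, 19.5, 15.96 and 21.4 CPM of Sesn1. In AF livers the lowest level was 8.71 CPM (AF 6), the median 16.7 CPM and the highest 26.6 CPM (AF 3). The groups overlapped, with means of 19.3 ± 2.36 CPM (SD, n = 5) and 17.1 ± 5.24 CPM (SD, n = 7). The log2 fold change of Sesn1 was -0.17 ± 0.197 (SE), and the adjusted p by edgeR was 0.502. With library totals and no scaling factor, the sign turned (0.22, adjusted p = 0.468). The gene 9930024M15Rik overlaps Sesn1 on the same strand.

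**Figure D2:**
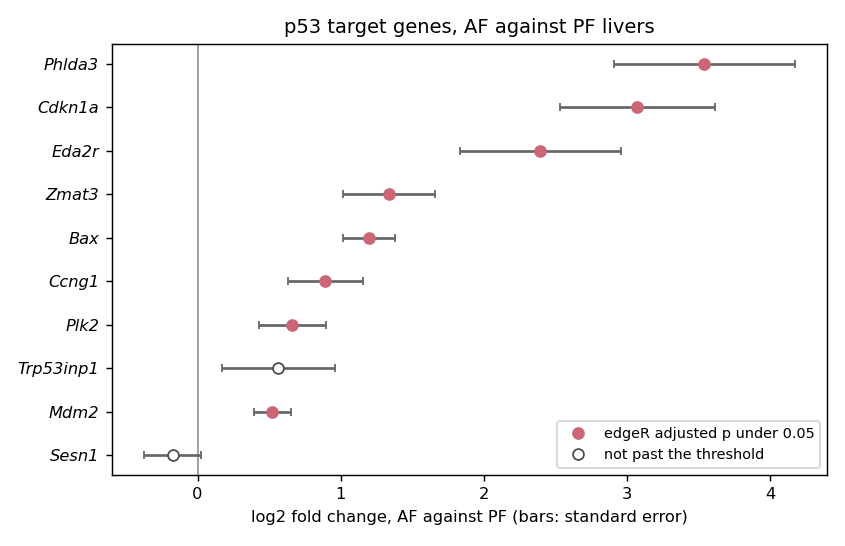
Log2 fold change of AF against PF livers for the 10 p53 target genes, with the standard error as bars (edgeR, 5 PF and 7 AF livers) and filled points for an adjusted p under 0.05. The 8 filled points lie between 0.52 (Mdm2) and 3.54 (Phlda3), and the open points are Trp53inp1 and Sesn1, of which Sesn1 is at -0.17 here and at 0.22 with library totals.

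Single genes were also tested without a model. In the exact two-sided permutation test of mean log2 CPM over the 792 splits of the 12 livers into 5 and 7, the unadjusted p was 0.00126 for Cdkn1a and Bax, which is the smallest that this design can give. It was 0.00505 for Phlda3, 0.00631 for Mdm2, 0.00758 for Zmat3, 0.00884 for Eda2r, 0.0177 for Ccng1 and 0.0492 for Plk2 (exact permutation test, 10 genes tested). For Plk2 it was above 0.05, up to 0.112, without any single library other than PF 3, AF 6 or AF 7 (exact permutation test), so that 7 or 8 genes were under 0.05. It was 0.337 for Trp53inp1 and 0.389 for Sesn1 in the exact permutation test.

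On the scale of CPM per kilobase of exon, which allows levels of different genes to be compared, the PF means were highest for Trp53inp1 (18.8 ± 7.83, SD, n = 5) and Ccng1 (15.4 ± 1.18), followed by Mdm2 (6.34), Sesn1 (4.84), Bax (3.81), Plk2 (3.01), Cdkn1a (1.46), Zmat3 (0.850), Phlda3 (0.349) and Eda2r (0.237). The neighbours Trp53inp1 and Ccng1, Cdkn1a and Zmat3, and Phlda3 and Eda2r were less than 1 SD apart. In AF livers the means were highest for Ccng1 (28.6 ± 13.5, SD, n = 7), Trp53inp1 (27.7 ± 17.3) and Cdkn1a (12.2 ± 7.65), ahead of Mdm2 (9.11), Bax (8.71), Plk2 (4.76), Sesn1 (4.28), Phlda3 (4.05), Zmat3 (2.14) and Eda2r (1.23). There all neighbours but Bax and Plk2 were less than 1 SD apart. Cdkn1a thus went from the seventh place to the third in this order, and Phlda3 and Eda2r, with the lowest levels in PF livers, were among the 3 genes with the largest fold changes.

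The rise was not equal in all AF livers. For each liver, the median over the 10 genes of the log2 difference from the PF mean was taken as a description. This median was 1.74 in AF 1, 1.48 in AF 5, 1.13 in AF 3, 1.10 in AF 4, 0.62 in AF 2, 0.50 in AF 7 and 0.24 in AF 6, and between -0.17 and 0.11 in PF livers. All 8 genes that rose had their highest AF level in AF 1 or AF 5 and their lowest in AF 6 or AF 7. These livers were picked out after their values were seen. Of all 3116 genes that rose, 49.97% were highest in AF 1 or AF 5, 61.8% were lowest in AF 6 or AF 7, and 34.2% were both. AF 1 to 5 were each above every PF liver for all 8 of these genes, AF 7 for 5 of them and AF 6 for 3 of them. For Cdkn1a and Bax, AF 6 and AF 7 were above all PF livers too.

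**Figure D3:**
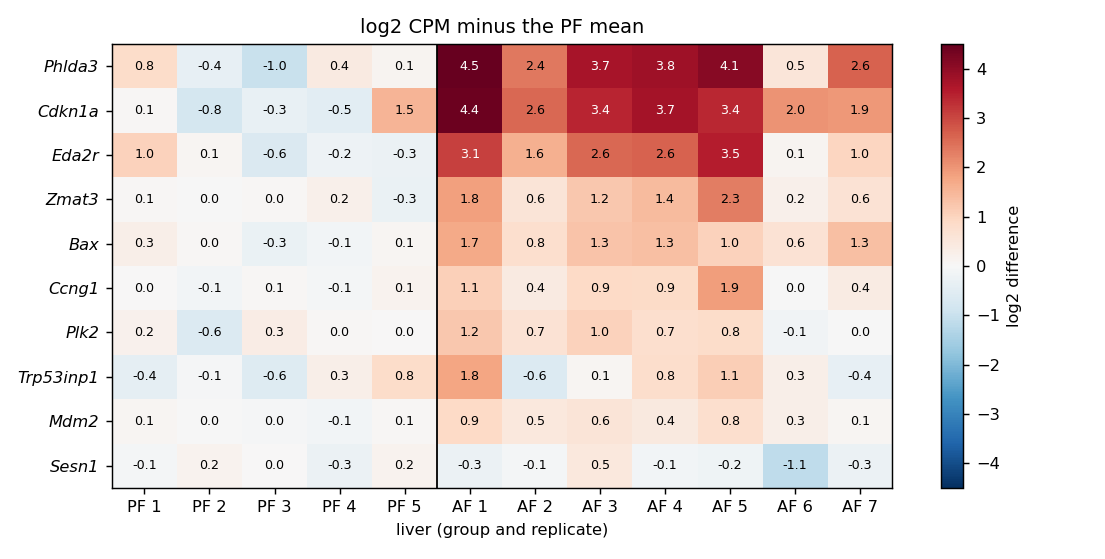
Log2 CPM minus the PF mean for the 10 p53 target genes (vertical axis, ordered by fold change) in each of the 12 livers (horizontal axis), with the value in each cell. AF 1 and AF 5 hold the darkest red cells, AF 6 is close to the PF livers for most genes, and Sesn1 is near 0 in most livers.

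AF 6 and AF 7 were also the livers that stood apart on the second principal component, so the comparison was repeated without both, an alternative added after seeing the data. Again 8 of the p53 target genes rose. Over all genes tested, 3613 then rose and 3090 fell, against 3116 and 2519 with every liver kept. AF 6 or AF 7 was the lowest AF liver for each of these 8 p53 target genes. Higher values for these genes thus follow from the choice of the livers left out, and they lend no support to the calls. The log2 fold changes were then 3.88 for Phlda3, 3.39 for Cdkn1a, 2.77 for Eda2r, 1.58 for Zmat3, 1.26 for Bax, 1.11 for Ccng1, 0.89 for Plk2 and 0.64 for Mdm2. Trp53inp1 was at 0.77 (adjusted p = 0.142) and Sesn1 at -0.02 (adjusted p = 0.926).

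Markers of other cell types also varied between these livers. Summed levels of recruited macrophage markers were 69.4 to 288 CPM in PF livers (4 of 7 markers rose), and 1572, 381, 653, 798, 816, 141 and 176 CPM in AF livers 1 to 7. Those of bile duct markers, which share Spp1 with the macrophage list, were 49.6 to 244 CPM in PF livers (4 of 5 tested rose), and 1092, 173, 335, 444, 746, 87.4 and 70.4 CPM in AF livers 1 to 7. For both lists AF 1 and AF 5 were highest, and AF 6 and AF 7 were lowest and within the PF range. Stellate cell and fibroblast markers (7 of 9 rose) summed to 195 to 495 CPM in PF and 420 to 1069 CPM in AF livers, with AF 6 lowest and AF 1 highest. Hepatocyte markers summed to 61800.4, 82957.1, 81597.8, 55489.9, 66493.3, 109719 and 110929 CPM in AF livers 1 to 7, with AF 4 lowest and AF 6 and AF 7 highest. Kupffer cell markers (5 of 6 rose) ran from 616 to 886 CPM in PF livers and reached 891 to 2782 CPM in AF livers, and their highest liver was AF 3. Of the markers tested in the remaining lists, 1 of 6 for sinusoidal endothelium rose, 0 of 6 for neutrophils and 0 of 4 for B cells passed the test, and 1 of 5 for T cells and 1 of 5 for red blood cells fell. The red blood cell markers summed to 130 to 182 CPM in PF livers and to 30.02, 181, 99.4, 50.4, 38.7, 136 and 130 CPM in AF livers 1 to 7, lowest in AF 1, AF 5 and AF 4. This sum is mostly Alas2, the heme synthesis enzyme that fell (mean 124 CPM in PF and 38.1 CPM in AF livers), while the 4 globin genes had higher AF than PF means and did not pass the test, and the median log2 fold change of the 5 genes was 0.84. No marker in any list was at 0 in all livers. The part of these cell types in the changes of the p53 target genes was not tested.

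The 3 genes tested whose profile over the 12 livers was most like that of Cdkn1a, by the mean absolute difference of centred log2 CPM among 14151 other genes, were Plat (0.440), Capg (0.456) and Syngr1 (0.468). Plat encodes tissue plasminogen activator, Capg an actin-capping protein and Syngr1 a protein of secretory vesicles. Syngr1 passed the filter on low counts through its AF livers, with 10 reads in all PF livers together. Plat, with 77 reads in PF livers and 7 in the lowest, also passed only with the help of its AF livers. Of the other p53 target genes here, Phlda3 was nearest to Cdkn1a (rank 81, 0.635), followed by Eda2r (rank 297, 0.808) and Zmat3 (rank 1051, 1.05). Sesn1 was farthest (rank 9666, 1.604). By this measure a gene with a smaller range than Cdkn1a is far from it even where the order of the livers is alike.

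The p53 gene itself, Trp53, also passed the test. Trp53 was at 15.4, 12.99, 13.8, 13.4 and 14.1 CPM in PF livers and at 14.5 to 23.0 CPM in AF livers (median 17.2 CPM), and 6 of the 7 AF livers were above all PF livers. Its log2 fold change was 0.39 ± 0.111 (SE), and the adjusted p by edgeR was 0.0148. With an offset for gene GC content and length it was 0.22 (adjusted p = 0.0957), past the threshold no longer. Mdm4, the partner of Mdm2 that inhibits p53, was at 43.6 to 56.7 CPM in PF and 34.1 to 47.1 CPM in AF livers (log2 fold change -0.30, SE 0.0934, edgeR adjusted p = 0.0211). With library totals its log2 fold change was 0.06 (adjusted p = 0.729). The call of Mdm4 was also lost with the GC and length offset (0.111), with the lower filter on counts (0.0564) and without PF 3 (0.0545) or PF 4 (0.0592).

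In a list of p53 and its regulators, 23 of 24 genes were tested (all but Cdkn2a), of which 4 rose (Trp53 among them) and 5 fell (Mdm4 among them), with a median log2 fold change of -0.05. These shares, 17.4% and 21.7%, were close to those of all genes tested. With library totals, 8 rose and 0 fell, where 6458 of all 14168 genes tested rose and 938 fell. The checkpoint kinase Chek1 rose (log2 fold change 1.39, from 0.875 ± 0.378 to 2.27 ± 1.14 CPM, SD, n = 5 and 7). The acetyltransferase Kat5 (0.32) and the histone chaperone Daxx (0.36) rose by little, and both lost the call with limma-voom (adjusted p = 0.0673 and 0.0509), with the GC and length offset (0.410 and 0.264) and without AF 6 and AF 7 (0.0699 and 0.0633). Kat5 also missed the threshold with RLE normalization (0.0622), DESeq2 (0.0529) and the lower filter on counts (0.0788). With single libraries left out, Kat5 was called only without AF 2, AF 5 or AF 6, and Daxx lost the call without PF 2, PF 3, PF 5, AF 2 or AF 4. The damage kinase Atm (-0.53), the deacetylase Sirt1 (-0.68), the ubiquitin-conjugating enzyme Ube2d3 (-0.42) and the p53-binding ligase Topors (-0.48) fell, and all 4 missed the threshold with library totals. Ube2d3 also missed it with the GC and length offset (-0.21, adjusted p = 0.164). Every AF liver was below every PF liver for Atm, Sirt1 and Topors, against 9.49% of all genes tested.

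Of 54 further p53 target genes, 52 were tested, without Trp73 and Zfp365. Of these, 20 rose and 6 fell, with a median log2 fold change of 0.30, and 9 had all AF above all PF livers and 2 all AF below all PF livers. Over all genes tested, 22% rose, 17.8% fell, 8.2% had all AF above all PF livers and 9.49% all AF below. With library totals, 35 of the 52 rose and 2 fell, where 6458 of all 14168 genes rose and 938 fell. The largest rises were those of Psrc1, which encodes a spindle protein (log2 fold change 3.54, from 0.109 to 1.27 CPM), the adenylate kinase Ak1 (3.22, from 0.110 to 1.08 CPM), the matrix glycoprotein Thbs1 (2.62, from 2.29 to 14.2 CPM) and the death receptor Tnfrsf10b (2.56, from 0.761 to 4.45 CPM). Psrc1 and Ak1 passed the filter on low counts through their AF livers, with 12 and 13 reads in all PF livers together, and Psrc1 was not tested when any of AF 1 to 5 was left out. Tnfrsf10b was in the PF range in AF 6 and AF 7 and missed the threshold with limma-voom (adjusted p = 0.0638). With 84 reads in all PF livers together and 6 in the lowest, Tnfrsf10b also passed the filter only with the help of its AF livers. Ak1 was above all PF livers in every AF liver.

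The largest falls among them were those of the thiamine transporter Slc19a2 (log2 fold change -1.34, from 154 ± 12.8 to 60.7 ± 8.02 CPM, SD, n = 5 and 7), the forkhead factor Foxo3 (-0.93, from 64.5 to 33.8 CPM), the antiproliferative gene Tob1 (-0.63) and the ubiquitin ligase Rnf144b (-0.49). For Slc19a2 and Foxo3 all AF livers were below all PF livers. Tob1 and Rnf144b missed the threshold with library totals (adjusted p = 0.403 and 0.464), and Rnf144b also with upper-quartile normalization (0.0570) and without PF 3, PF 5, AF 1, AF 3 or AF 4 in turn (up to 0.0853).

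**Figure D4:**
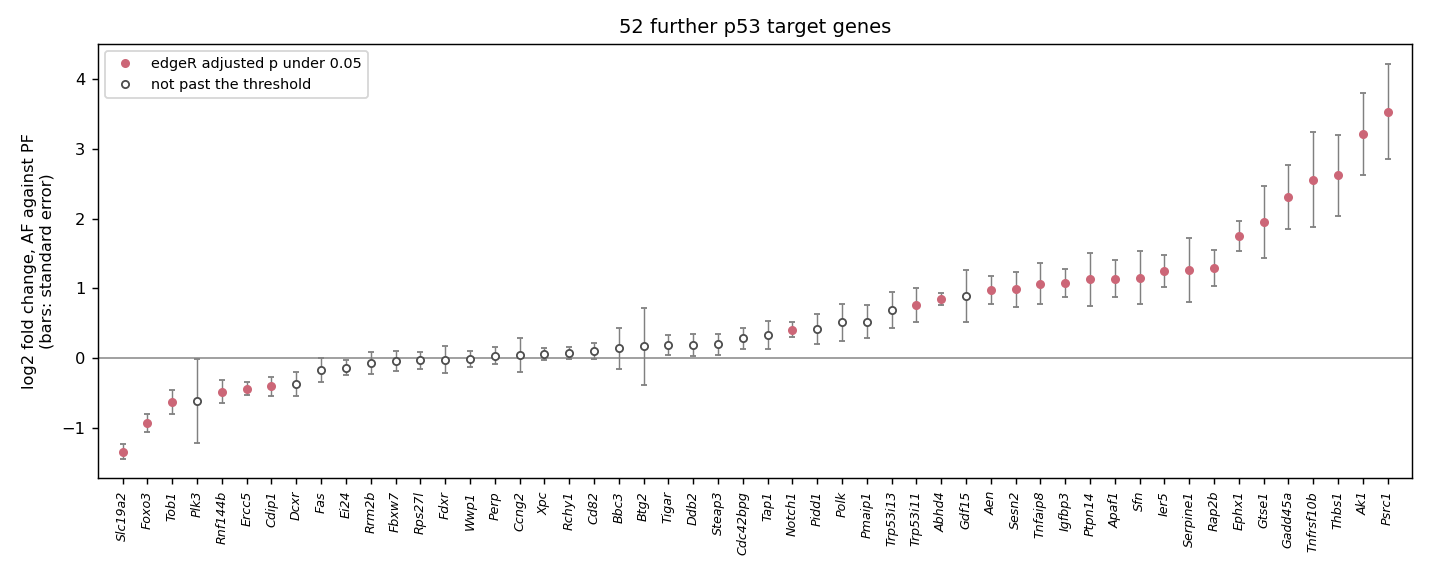
Log2 fold change of AF against PF livers (vertical axis, standard errors as bars) for 52 further p53 target genes in order of size, with filled points for an edgeR adjusted p under 0.05. On the scaling used, 20 filled points lie above 0, from Notch1 to Psrc1, and 6 below 0, of which Slc19a2 is the lowest at -1.34.

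The product of Cdkn1a binds cyclins and their kinases. Of 13 cyclins, cyclin-dependent kinases and related binding partners and inhibitors, 6 rose and 0 fell by edgeR (7 and 0 at an unadjusted p under 0.05, 6 and 0 with DESeq2 and 4 and 0 with limma-voom), with a median log2 fold change of 0.40, where 22% of all genes tested rose and 17.8% fell. The mitotic kinase Cdk1 rose from 2.88 ± 1.64 to 11.6 ± 7.90 CPM (SD, n = 5 and 7, log2 fold change 2.02). Ccnd1, which encodes cyclin D1, rose from 28.9 ± 9.49 to 114 ± 53.8 CPM (1.98), with its highest level in AF 5 (195 CPM) and its lowest in AF 6 (28.7 CPM, within the PF range). Ccna2 (1.79) and the inhibitor Cdkn1c (1.34) rose too, and Ccna2 missed the threshold with limma-voom (adjusted p = 0.105) and without any of PF 2 to 5 or AF 1 to 3 (up to 0.0834). Without PF 1, the log2 fold change of Ccna2 was 2.41. Cdkn1c passed the filter on low counts only with the help of its AF livers, with 61 reads in all PF livers together.

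Of 22 proliferation genes, 14 rose and 0 fell by edgeR (17 and 0 at an unadjusted p under 0.05, 15 and 0 with DESeq2 and 6 and 0 with limma-voom), with a median log2 fold change of 1.27, against 22% of all genes tested that rose and 17.8% that fell. Their largest rises were those of Cdc20 (2.88), Plk1 (2.22), Ccnb1 (2.13) and Foxm1 (1.97). Cdc20, Plk1 and Foxm1 passed the filter on low counts only with the help of their AF livers. They had 90, 59 and 100 reads in all PF livers together. Without PF 1, the log2 fold changes were 3.84 for Cdc20, 3.27 for Plk1 and 2.80 for Ccnb1. With limma-voom, Plk1 (adjusted p = 0.0961), Ccnb1 (0.163) and Foxm1 (0.0828) missed the threshold. Plk1 missed it also with the GC and length offset (0.0520) and without PF 2 to 5 or AF 1 to 4 in turn, Ccnb1 without PF 2 to 5 or AF 1 to 3, and Foxm1 without PF 2, PF 4 or PF 5. With 1 library left out, 5 to 19 of the 22 genes rose. There were 5 without PF 2 or PF 4, 6 without PF 3, PF 5 or AF 3, and 7 without AF 1 or AF 2. In the fits with 1 library left out, 2519 to 3574 of all genes tested rose. Why the counts moved was not tested. With the pair AF 6 and AF 7 left out, 20 of the 22 rose, where 3613 of all genes tested rose and 3090 fell. PF 1 was the highest PF liver for all 22 genes, and it also had the highest summed level of neutrophil markers (742 CPM, against 52.3 to 191 CPM in the other PF livers), whose part was not tested. The highest AF liver was AF 3 for 15 of the 22, AF 1 for 4, AF 5 for 2 and AF 2 for 1. The lowest was AF 6 for 17 and AF 7 for 5. A difference from the p53 target genes in this order was not tested.

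**Figure D5:**
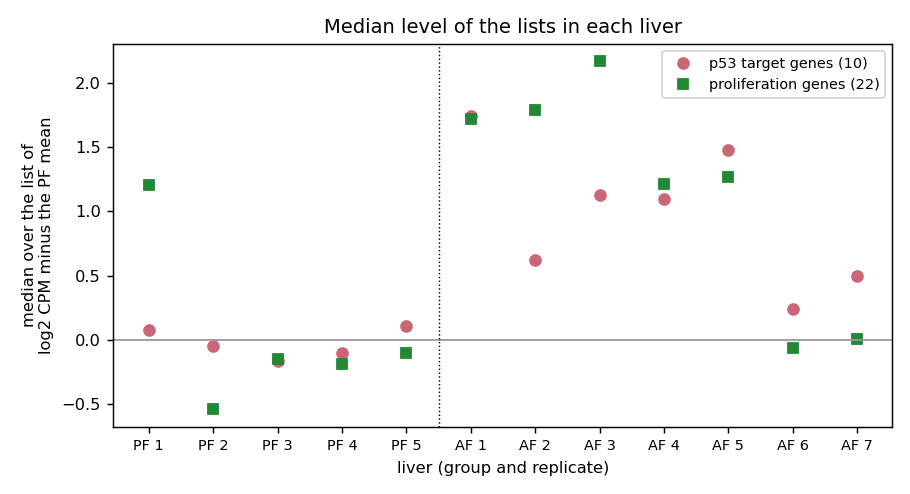
Median over a list of log2 CPM minus the PF mean (vertical axis) in each liver (horizontal axis), for the 10 p53 target genes (circles) and 22 proliferation genes (squares). The circles peak in AF 1 (1.74) and the squares in AF 3 (2.17), both lists are low in AF 6 and AF 7, and PF 1 is high for the squares (1.20) but not for the circles (0.08).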

How the data were processed

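The 12 libraries (5 PF, 7 AF) each came from the liver of 1 mouse. What the authors deposited are raw read counts for Ensembl genes, without normalization. Per the labels and the study's methods, reads were checked with FastQC 0.10.1, not trimmed, aligned to GRCm38 with TopHat2 2.0.13 and counted with HTSeq 0.10.0. The annotation and the strand setting of the counting are not given in the sources used here. The study's own comparison was made with another tool (Cuffdiff) that does not take counts, so a count test was used in its place.

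Of 54232 gene IDs, 54165 were named by GENCODE M21, from which positions and exon lengths were also taken. IDs without a symbol stayed in the library totals and the tests. Counts were filtered with filterByExpr by group, scaled with TMM and tested with the quasi-likelihood test of edgeR 4.0.16 (R 4.3.3) for AF against PF, two-sided, without covariates, over all libraries, with Benjamini-Hochberg adjustment over the 14168 genes tested and a threshold of 0.05. Log2 CPM used a prior count of 2. Depth was 24129900 to 30578639 reads per library, and values cover the spread between mice and counting error without molecular identifiers. No pair of libraries within a group looked like repeated material (31 pairs, lowest ratio of observed to counting variance 21.1).

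The 10 genes and all gene lists were chosen with earlier results of these data known. The text names the 10 genes, Trp53, Mdm4 and each of their regulators past the threshold, and from the lists of further p53 targets, cyclins and kinases, proliferation genes and BCL2 family genes the 4 largest rises and falls past the threshold, and the 3 genes nearest to Cdkn1a. For the 10 marker lists, summed CPM are given. Alternatives were RLE and upper-quartile normalization, library totals, DESeq2 1.42.0, limma-voom (limma 3.58.1) with and without sample quality weights, a lower filter (1 count in any library) and a higher one (mean of 10 counts), prior counts of 0.5 and 5, the replicate number as a block, an offset for GC content and length (known for 99.9% of genes tested), and each library left out in turn. On simulated counts for 13986 genes, edgeR recovered 75% of genes with a log2 change of 1 and 97% of those with 2, with 3 false calls. DESeq2 recovered 81% and 98% with 36 false calls, and limma-voom 73% and 96% with 2 false calls. In these counts, 100 genes changed by each amount, as many up as down, all with a mean above 1 CPM. Far more genes were called in the data, and some named genes were below 1 CPM, so these rates need not hold there.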

Additional observations from a re-analysis of the deposited data

Results flagged for a closer look

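The levels of 42 named genes were examined in each group for a liver far from the others, by the gap to its nearest neighbour over the range of the group. Such a liver was found in 17 of 84 such groups. The rule would give about 4.2 by chance only for independent groups with normally distributed levels. Here the levels were CPM without logarithm, and the mitotic genes named below share an outlying liver. The 17 can therefore not be weighed against 4.2, and whether it exceeds chance was not tested. Among the 10 p53 target genes, 2 livers stood out, PF 5 for Cdkn1a (12.5 CPM) and AF 5 for Ccng1 (197 CPM).

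PF 1 stood out among PF livers for the mitotic genes Cdk1 (5.76 CPM), Ccna2 (6.99 CPM), Cdc20 (2.51 CPM), Plk1 (1.72 CPM) and Ccnb1 (3.25 CPM), each as the highest, and for Ube2d3 (169 CPM) as the lowest. PF 5 was the highest PF liver for Slc19a2 (176 CPM), Bcl2a1d (0.588 CPM) and Bcl2a1b (1.76 CPM), and PF 3 was the lowest for Foxo3 (41.4 CPM). Among AF livers, AF 1 was the highest for Ak1 (2.38 CPM), Plat (18.1 CPM) and Syngr1 (3.53 CPM), AF 3 for Bcl2a1d (2.31 CPM) and AF 6 for Kat5 (17.4 CPM).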

How the results depend on the processing

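The 10 p53 target genes had 240 single-gene alternatives, of which 229 kept the direction and the side of the threshold, 10 lost the call (all of Plk2) and 1 turned its direction (Sesn1, 0.22 with library totals). The count of risen genes among them was 7 or 8 throughout. With library totals and no scaling factor, counts became 6458 higher and 938 lower for all genes, 35 and 2 for the further p53 targets and 8 and 0 for p53 and its regulators, the log2 fold change of Mdm4 turned to 0.062 and the median of the 10 genes in AF 1 became 2.40. Risen regulators were 2 with limma-voom, 1 with the GC and length offset (3 fell), 2 with this offset and the replicate block, and 2 to 5 with single libraries left out. Risen cyclins and kinases were 10 with quality weights. Risen proliferation genes were 6 with limma-voom and 5 to 19 with single libraries left out. In the BCL2 family, 1 gene fell with RLE normalization, DESeq2 and the GC and length offset each, and 0 to 1 with single libraries left out. The cause was not tested. With the replicate number as a block (numbers 1 to 5 of both groups), 3342 genes rose and 2914 fell in all, and 8 of the 10 p53 target genes rose, while Kat5 and Daxx missed the threshold (adjusted p = 0.152 and 0.0664), as did Tob1 with the block and the offset together (0.106). The correlation of same-numbered libraries ranged from -0.07 to 0.12. These values are small but cannot decide whether livers of the same number were paired or handled together. Among the 10 genes, Phlda3 had the fewest PF reads (61), and of the other named genes Psrc1, Ak1, Hrk, Bcl2a1d, Syngr1 and Plk1 had fewer still (10 to 59).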

Other observations

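Of 14 BCL2 family genes, the relatives of Bax, 7 rose and 0 fell by edgeR's quasi-likelihood test (7 and 1 at an unadjusted p under 0.05, 7 and 1 with DESeq2, 6 and 0 with limma-voom), where 22% of all genes tested rose and 17.8% fell. Their median log2 fold change was 0.26. The proapoptotic gene Hrk rose most (log2 fold change 3.05, from 0.205 ± 0.109 to 1.77 ± 1.22 CPM, SD, n = 5 and 7). Hrk passed the filter on low counts through its AF livers, with 24 reads in all PF livers together. Its highest level was in AF 7 (3.66 CPM) and its lowest in AF 4 (0.313 CPM), while Bax was highest in AF 1 and lowest in AF 6. The survival gene Bcl2 rose as well (0.89), but lost the call with limma-voom and without PF 1, PF 2, PF 3, PF 5, AF 1, AF 3, AF 4 or AF 5 (adjusted p up to 0.0960). Bcl2a1d (2.27, and 3.32 without PF 5) and Bcl2a1b (2.17) rose too. They are near-identical copies of each other, so that reads fitting both could be missing from either count. Bcl2a1d passed the filter on low counts mostly through its AF livers, with 21 reads in all PF livers together. Bcl2a1b, with 92 such reads and 9 in the lowest liver, also needed its AF livers to pass.

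AF 1 was the highest AF liver both for Trp53 (23.0 CPM) and for the median of the 10 p53 target genes (1.74), and AF 3 and AF 4 were next for Trp53 (20.2 and 19.4 CPM). AF 5, which had the second highest median of the 10 genes (1.48), had the lowest Trp53 level of the AF livers (14.5 CPM), within the PF range of 12.99 to 15.4 CPM. Whether the orders of the livers differ was not tested.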
